A study of Mus musculus with 6 samples.

Results

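Oxidative phosphorylation subunit genes encode the proteins of the mitochondrial respiratory chain and of ATP synthase. Here they are the protein-coding genes whose symbol begins with a name of a nuclear-encoded subunit of complexes I to V (Nduf, Sdh, Uqcr, Cyc1, Cox4 to Cox8 and Atp5) and whose counts summed to more than 5 over all libraries. By this rule there were 84 genes of 28157 tested, 37 in complex I, 4 in complex II, 9 in complex III, 17 in complex IV and 17 in complex V. Another 12 matching symbols were not protein-coding and were left out, 11 of them processed pseudogenes. The names set the complex, so Ndufa4, now regarded as a subunit of complex IV, is counted under complex I, and Ndufab1 is outside the rule.

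The genes were measured by bulk RNA-Seq in the cardiac outflow tract (OFT) of E13.5 mouse embryos, in 3 libraries labelled Notch1+/-; Nos3-/- (mutant) and 3 libraries labelled wildtype. The mutant embryos carry a knockout allele of Notch1, a receptor of cell-to-cell signalling, and lack both intact alleles of Nos3, the endothelial nitric oxide synthase. Both alleles are germline knockouts, not restricted to a cell type, on a C57/BL6J background, and wildtype littermates served as controls. Each library pooled 3 OFTs cut at their base below the conal cushions, 18 OFTs in all, so a library averages embryos and mixes myocardium, cushion mesenchyme, endothelium, smooth muscle and blood.

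Complex I takes electrons from NADH and complex II takes them from succinate. Both pass them to ubiquinone, complex III moves them on to cytochrome c, and complex IV hands them to oxygen, while complexes I, III and IV pump protons that drive complex V to make ATP. Cardiac muscle depends heavily on this pathway and carries its own isoforms of several complex IV subunits. All complexes but II are built from products of both genomes, and the transcripts of the mitochondrial genome are not among the genes listed, so only the nuclear side is described.

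Depth was between 34729103 and 44387490 counts per library. Values are CPM, that is, counts divided by the library total and rescaled by the TMM factors of edgeR, and log2 fold changes are mutant minus wildtype. Notch1 was at 74.3, 88.2 and 83.6 CPM in the libraries labelled wildtype and at 155, 161 and 139 CPM in those labelled mutant, which is higher under the label of the knockout (log2 fold change 0.89, adjusted p = 0.0313). Nos3 was at 31.8, 47.2 and 48.1 CPM under the wildtype label and at 22.1, 22.0 and 20.4 CPM under the mutant label (log2 fold change −0.98, adjusted p = 0.128). Myocardial, Endothelial and Mesenchymal markers were present in all libraries, while of the smooth muscle (VSMC) markers Acta2 was at 1054 to 1628 CPM and Tagln at only 2.06 to 3.04 CPM. Notch1 RNA was thus higher under the label of the knockout, while Nos3 RNA was lower there without overlap between groups. Whether the Notch1 counts include transcripts of the knockout allele was not tested. For this reason groups are named here as libraries labelled mutant or wildtype.

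Of the 84 subunit genes, 82 had a lower fitted level in the libraries labelled mutant (97.6%), where 48.8% of all genes tested had a negative log2 fold change. Their median log2 fold change was −0.49, against 0.01 over all 28157 genes and −0.03 over the 16655 genes of at least 1 CPM. None passed the test (0 of 84 at an adjusted p of at most 0.05 by the quasi-likelihood test of edgeR, adjusted by Benjamini-Hochberg over all genes), where 6 of all genes did (0.0213%). At an unadjusted p under 0.05 there were 74 subunit genes lower and 2 higher (88.1% lower), beside 7.83% of all genes lower and 8.23% higher. DESeq2's Wald test called 37 of the 84 (beside 2.64% of all genes), of which 36 were lower and 1 higher (beside 1.18% and 1.46%), and limma-voom called 0. The smallest adjusted p of a subunit gene in edgeR was 0.181, for Cox7c.

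**Figure D1:**
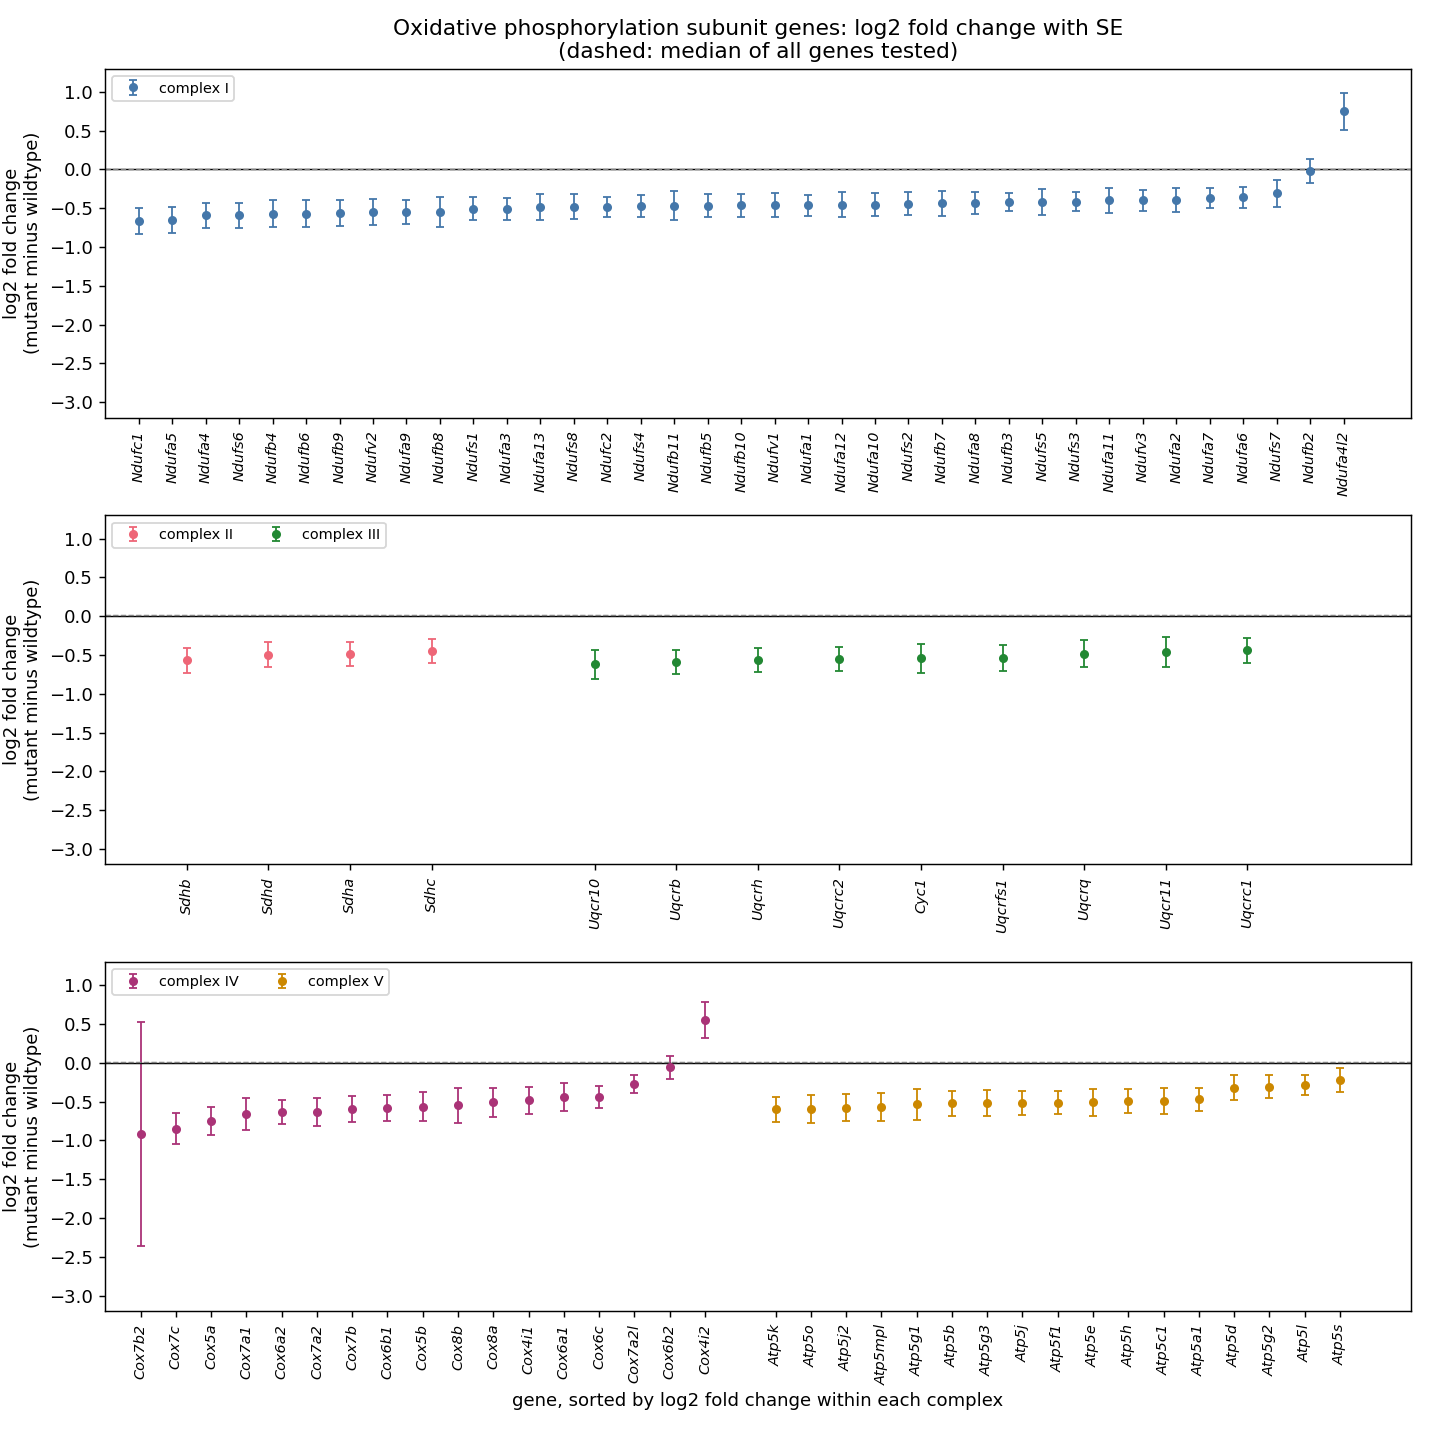
Each point is 1 subunit gene with its log2 fold change (mutant minus wildtype, edgeR) on the vertical axis and a bar of 1 SE, sorted within complexes I to V. Nearly all points lie between −0.75 and −0.25, Ndufa4l2 (0.75) and Cox4i2 (0.55) lie above 0, and the long bar of Cox7b2 comes from a gene with very few counts.

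The log2 fold changes lay within a narrow band. Of the 83 with a mean of at least 1 CPM, 77 had log2 fold changes between −0.75 and −0.25. The medians of the complexes were close, at −0.46 for complex I, −0.49 for complex II, −0.54 for complex III, −0.57 for complex IV and −0.51 for complex V. Differences between complexes were not tested.

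The order of the libraries was nearly the same for most subunit genes. Summed over the 84 genes, the level was 15381, 19954 and 22840 CPM in wildtype libraries 1, 2 and 3 and 13491, 11850 and 15733 CPM in mutant libraries 1, 2 and 3. The 2 groups overlapped in this sum, because wildtype library 1 lay below mutant library 3. For the orders of single libraries that follow, shares over all genes were not counted. Gene by gene, wildtype library 1 was the lowest of its group for 80 of the 84 genes, and it was below mutant library 3 for 62. By contrast, wildtype library 2 lay above every library labelled mutant for 79 genes and wildtype library 3 for 80, while mutant library 2 lay below every wildtype library for 79. As a result the groups did not overlap for 18 genes that were lower (21.4%, beside 12.8% of all genes of at least 1 CPM and 8.94% of all genes tested) and for 1 that was higher (beside 10.8% and 10.7%).

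In the main fit, which has no term for replicate number, how many genes passed edgeR's test depended on which library was left out. Without wildtype replicate 1, 76 of the 84 genes were called, all 76 lower, beside 5.3% of all genes called lower, and the median log2 fold change was −0.65. With each of the other 5 libraries left out in turn, 0 were called, and the median lay between −0.61 and −0.38. With all 6 libraries and replicate number added as a block, edgeR called 61 (59 lower, beside 2.42% of all genes called lower). The replicate numbers were not taken as pairs. Without wildtype replicate 1 the groups did not overlap for 78 genes that were lower (beside 28.9% of all genes of at least 1 CPM). They did not overlap for 2 that were higher (beside 22.5% of all genes tested). Without mutant replicate 3 there were 63 such genes that were lower (beside 25% of all genes of at least 1 CPM). Here too 2 were higher (beside 20.1% of all genes tested). The wildtype libraries are numbered by their titles, since their descriptions give the opposite numbers for wildtype libraries 2 and 3. Both carry the wildtype label either way.

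**Figure D2:**
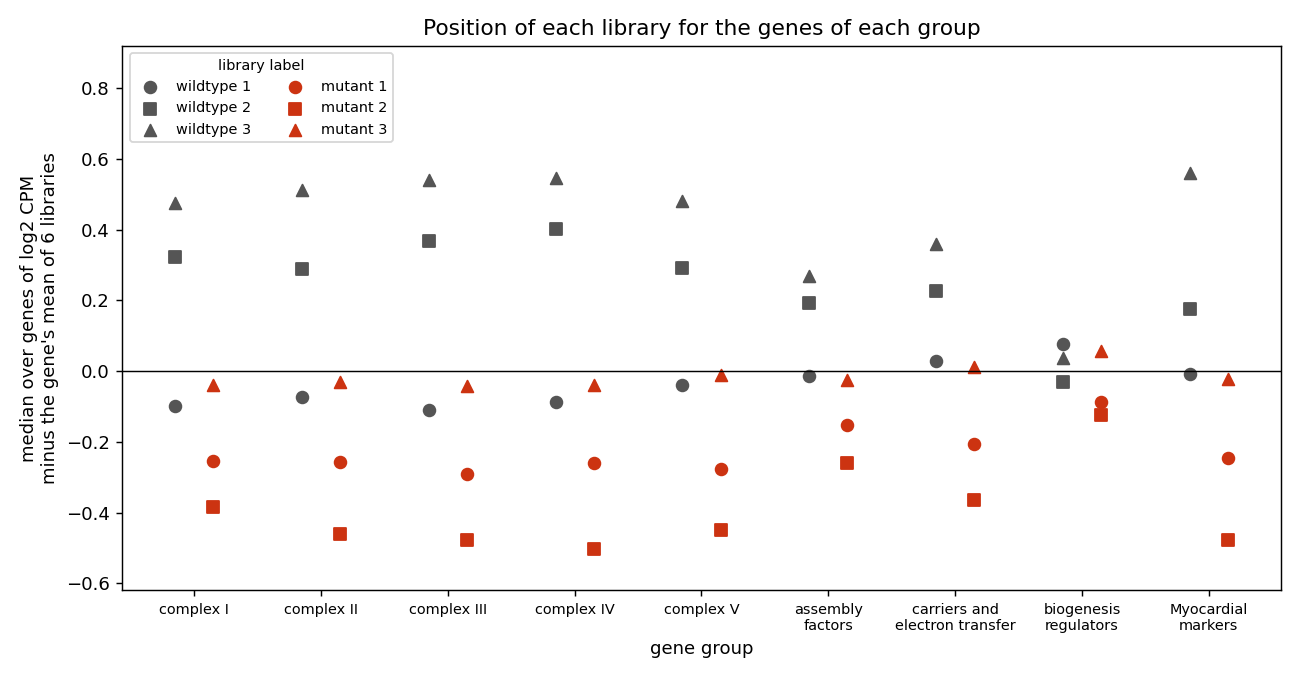
Median over the genes of a group of log2 CPM minus the gene's own mean of the 6 libraries (vertical axis, log2 units), one symbol for each library, for the 5 complexes, 3 further mitochondrial lists and the Myocardial markers. In all 5 complexes wildtype libraries 2 and 3 stand above 0, wildtype library 1 and mutant library 3 lie just below 0, and mutant libraries 1 and 2 are lowest; for the Myocardial markers wildtype library 1 stands just above mutant library 3.

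Among the marker lists, those of Myocardial, Blood and Liver cells had log2 fold changes of the same sign as the subunit genes. All 16 Myocardial markers had negative log2 fold changes, with a median of −0.52, and 13 had an unadjusted p under 0.05. Their summed level ranged from 37537 to 55620 CPM under the wildtype label and from 26097 to 37036 CPM under the mutant label, and wildtype library 1 was the lowest of its group there too. Tnnt2, the cardiac troponin T gene, was at 4567, 5350 and 6451 CPM under the wildtype label and at 3753, 3514 and 4470 CPM under the mutant label. All 7 Blood markers also had negative log2 fold changes, with a median of −0.56, and 5 had an unadjusted p under 0.05. Their summed level was 5289, 11774 and 10089 CPM under the wildtype label and 6126, 6080 and 6221 CPM under the mutant label, so that wildtype library 1 was the lowest of all 6. The 6 Liver markers were negative too (median −3.39, all 6 at an unadjusted p under 0.05), with low sums of 1.82, 98.2 and 27.7 CPM against 3.15, 5.82 and 1.59 CPM. All 9 Mesenchymal markers had positive log2 fold changes, with a median of 0.60, from 4698 to 9187 CPM in sum under the wildtype label and from 8551 to 11090 CPM under the mutant label. With the mean of the Myocardial markers as a covariate, the median log2 fold change of the subunit genes was −0.14, and 78 of 84 were negative. In the same fit the Myocardial markers themselves had a median of −0.13. Over the libraries, their median deviation averaged 0.24 under the wildtype label and −0.25 under the mutant label. The covariate thus follows the label in part, and the fit cannot separate the 2. In bulk tissue, fewer cells of a type and less RNA per cell cannot be told apart, and the part of tissue makeup in the values of the subunit genes was not tested.

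Levels of different genes were compared per length, as CPM per kb of annotated exons. The highest were Atp5a1 (582) and Atp5b (541), which encode the alpha and beta subunits of the catalytic head of ATP synthase, followed by Cox8a (519), Cox6b1 (456) and Cox6a1 (342), small nuclear subunits of complex IV. Atp5a1 and Atp5b alone held 24.9% of the summed CPM of the 84 genes. Over the genes of at least 1 CPM, median levels per length were 63.6 in complex I, 119.5 in complex II, 139 in complex III, 124 in complex IV (16 genes, without Cox7b2) and 86.5 in complex V. Within complex I they ran from 2.57 for Ndufb2 to 235 for Ndufa1. The annotated exons of Ndufb2 span 5628 bases, so its level per length depends on which exons are used. Its mean was low before division by length too, at 14.5 CPM. Ndufb5, with exons of 4995 bases, was at 115 CPM.

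**Figure D3:**
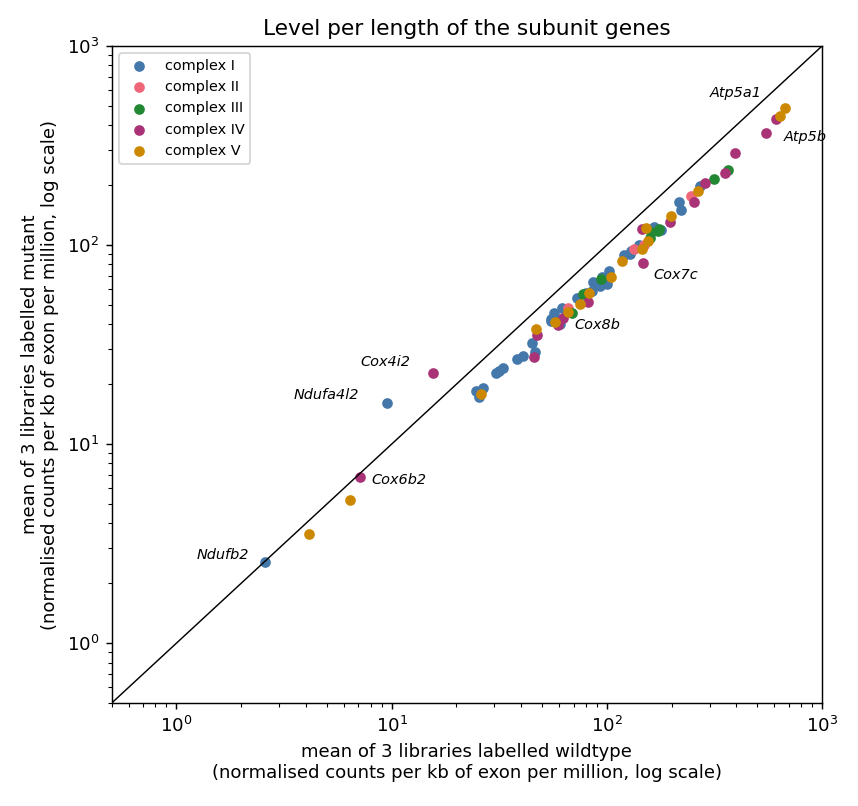
Mean level per length (CPM per kb of exon, log scales) of the 83 subunit genes of at least 1 CPM, libraries labelled wildtype on the horizontal and mutant on the vertical axis, coloured by complex. Nearly all points run parallel to and under the line of equality over the whole range of levels, with Ndufa4l2 and Cox4i2 above it and Ndufb2 and Cox6b2 on it.

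In complex I, 36 of 37 genes had negative log2 fold changes, and 34 of them had an unadjusted p under 0.05. The lowest was Ndufc1 (ENSMUSG00000037152, mm10 chr3:51404677-51408988, minus strand), which encodes a small accessory subunit. Its level was 55.3, 71.3 and 81.1 CPM under the wildtype label and 41.1, 35.6 and 54.2 CPM under the mutant label. The groups did not overlap, with wildtype library 1 just above mutant library 3 (log2 fold change −0.67, SE 0.17, adjusted p = 0.191). The 7 core genes of the peripheral arm, which takes in electrons from NADH, had log2 fold changes from −0.55 (Ndufv2) to −0.30 (Ndufs7). Ndufs1, the largest of these subunits, was at 283, 287 and 357 CPM under the wildtype label and at 202, 184 and 265 CPM under the mutant label, again without overlap (log2 fold change −0.51, SE 0.15). Ndufa13, an accessory subunit also known as Grim19, was at 128, 187 and 212 CPM against 124, 113 and 139 CPM, with overlap (log2 fold change −0.49, adjusted p = 0.230). Ndufb2, singled out after its values were seen, was the member of complex I nearest to 0 (log2 fold change −0.02, SE 0.16, and 0.34 with the Myocardial covariate).

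The 4 genes of complex II, which is also the succinate dehydrogenase of the citric acid cycle, had log2 fold changes from −0.57 to −0.45. Sdhb, the iron-sulfur subunit, was lowest, at 260, 343 and 393 CPM under the wildtype label and 222, 189 and 261 CPM under the mutant label (log2 fold change −0.57, SE 0.16, adjusted p = 0.195). Its groups overlapped only at wildtype library 1 and mutant library 3. Sdha, the flavoprotein that oxidises succinate, was at 495, 505 and 662 CPM against 383, 338 and 464 CPM, without overlap (log2 fold change −0.49, SE 0.15). The genes of the membrane anchors, Sdhd and Sdhc, had log2 fold changes of −0.49 and −0.45.

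All 9 genes of complex III had an unadjusted p under 0.05 and log2 fold changes from −0.62 to −0.44. Uqcr10, a small subunit, was lowest, at 150.3, 226 and 264 CPM under the wildtype label and 136, 117 and 164 CPM under the mutant label (log2 fold change −0.62, SE 0.19, adjusted p = 0.208). Wildtype library 1 lay between the mutant libraries for this gene. The catalytic subunit genes Cyc1 (cytochrome c1) and Uqcrfs1 (the Rieske iron-sulfur protein) both had log2 fold changes of −0.54, with SEs of 0.19 and 0.16. The core genes Uqcrc2 and Uqcrc1 had values of −0.55 and −0.44, and the latter was the highest of the complex.

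In complex IV, the cytochrome c oxidase, 16 of 17 genes had negative log2 fold changes. Cox7c (ENSMUSG00000017778, mm10 chr13:86044816-86046904, minus strand) had the lowest value of the genes of at least 1 CPM and the smallest adjusted p of all subunit genes, shared with Cox5a and Cox6a2. It was at 124, 191 and 184 CPM under the wildtype label and at 83.7, 73.2 and 120.0 CPM under the mutant label, so that only a narrow gap separated wildtype library 1 from mutant library 3 (log2 fold change −0.85, SE 0.20, adjusted p = 0.181, and 0.00322 in DESeq2). Cox5a, whose product binds the matrix side of the enzyme, was at 72.2, 102 and 114 CPM against 61.0, 44.9 and 66.0 CPM, also without overlap (log2 fold change −0.74, SE 0.18). Cox7a2l, a factor in the joining of complexes III and IV, had a smaller difference (log2 fold change −0.27, SE 0.11). Cox6b2 and Cox7b2 are forms known from testis. Cox6b2 was at 7.06 to 9.15 CPM in all 6 libraries (log2 fold change −0.06, and 0.048 with scaling by library size only), and Cox7b2 had 6, 1 and 62 counts under the wildtype label and 0, 0 and 40 under the mutant label, too few to set a direction (log2 fold change −0.92, SE 1.45).

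Complex IV subunits with a heart and muscle form and a widely expressed form were compared as pairs. Cox6a2, the heart form of subunit 6a, was at 129, 195 and 194 CPM under the wildtype label and at 117, 99.0 and 118 CPM under the mutant label, without overlap (log2 fold change −0.63, SE 0.15, adjusted p = 0.181). Its widely expressed partner Cox6a1 was at 194, 292 and 344 CPM against 211, 177 and 222 CPM, with overlap (log2 fold change −0.44, SE 0.18). The log2 ratio of Cox6a2 to Cox6a1 counts was −0.67 ± 0.14 under the wildtype label and −0.87 ± 0.04 under the mutant label (SD, n = 3 each), a difference of −0.20 with no overlap between libraries. The exact two-sided permutation test gave p = 0.1, the smallest that 3 against 3 libraries allow, and 0.3 after adjustment over the 3 pairs. The ratio of Cox7a1 to Cox7a2 differed by −0.03 (exact permutation p = 0.8) and that of Cox8b to Cox8a by −0.05 (exact permutation p = 0.8), each less than the spread between libraries. In both pairs the heart form and the widely expressed form had log2 fold changes of the same sign, −0.65 and −0.63 for Cox7a1 and Cox7a2 and −0.55 and −0.51 for Cox8b and Cox8a.

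The 2 subunit genes with positive log2 fold changes (80 of the 84 were negative with scaling by library size only) were forms known for their induction in low oxygen, each a paralog of an abundant subunit. Ndufa4l2 (ENSMUSG00000040280, mm10 chr10:127514967-127517154, plus strand), a known target of Hif1α, was at 12.0, 13.1 and 6.26 CPM under the wildtype label and at 17.7, 20.7 and 14.6 CPM under the mutant label. Every library labelled mutant was above every library labelled wildtype (log2 fold change 0.75, SE 0.24, adjusted p = 0.216, and 0.0470 in DESeq2). Cox4i2 (ENSMUSG00000009876, mm10 chr2:152754173-152765037, plus strand), the alternative form of subunit 4, was at 15.0, 14.1 and 7.55 CPM against 20.1, 19.6 and 14.1 CPM, with overlap (log2 fold change 0.55, SE 0.23, adjusted p = 0.291).

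Their partners lay on the other side of 0. Ndufa4 was at 191, 270 and 281 CPM under the wildtype label and at 152, 144 and 195 CPM under the mutant label (log2 fold change −0.59, SE 0.16), and Cox4i1 had a log2 fold change of −0.48 (SE 0.17). The log2 ratio of Ndufa4l2 to Ndufa4 was −4.61 ± 0.78 under the wildtype label and −3.21 ± 0.48 under the mutant label (SD, n = 3 each), a difference of 1.40 without overlap. The log2 ratio of Cox4i2 to Cox4i1 was −5.20 ± 0.89 under the wildtype label and −4.15 ± 0.41 under the mutant label, a difference of 1.05 with overlap. These 2 pairs were added after their values were seen, so their ratios are given with no test. With the Myocardial covariate, the log2 fold changes of Ndufa4l2 and Cox4i2 were 0.20 and 0.0034.

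**Figure D4:**
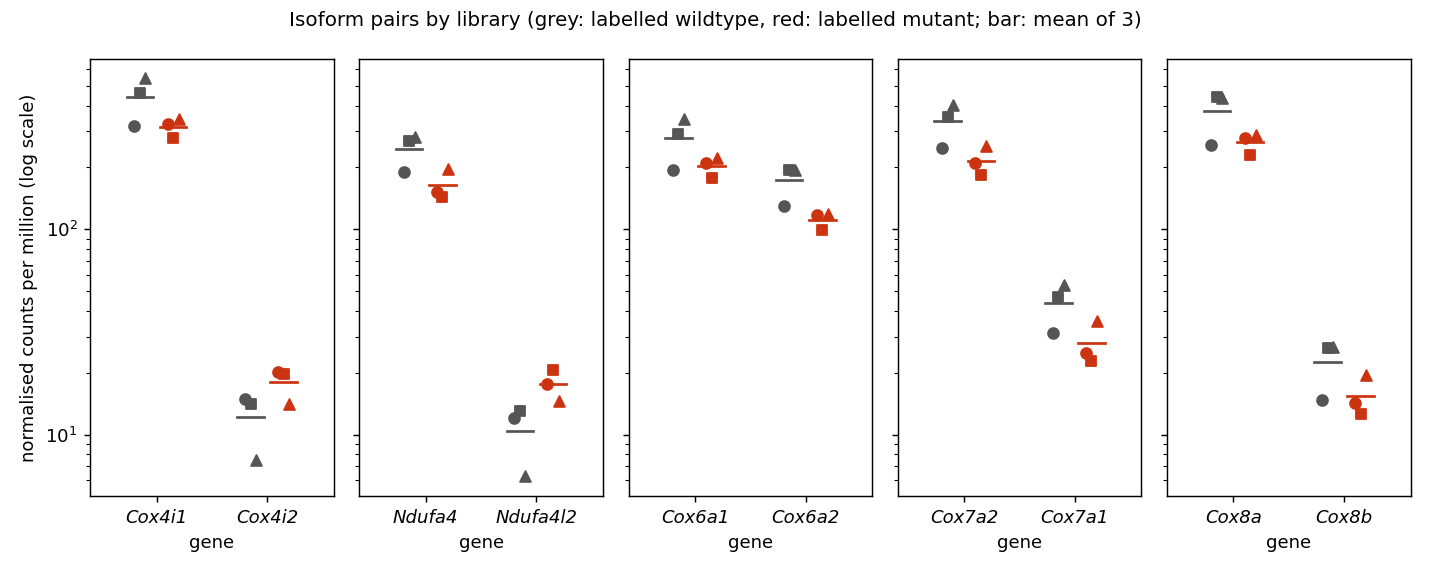
CPM (vertical axis, log scale) of 5 pairs of isoform genes in each library, grey for libraries labelled wildtype and red for mutant, with circle, square and triangle for replicates 1, 2 and 3 and a bar at the mean of 3. In the Cox6a, Cox7a and Cox8 pairs both genes have lower means under the mutant label, while Cox4i2 and Ndufa4l2 have higher means and their partners Cox4i1 and Ndufa4 lower ones.

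All 17 genes of complex V had negative log2 fold changes, from −0.60 to −0.22, and 13 had an unadjusted p under 0.05. Atp5b was at 2220, 2596 and 3286 CPM under the wildtype label and at 1841, 1627 and 2173 CPM under the mutant label, without overlap (log2 fold change −0.52, SE 0.16, adjusted p = 0.208). Atp5a1 was at 1801, 2056 and 2491 CPM against 1504, 1323 and 1764 CPM, also without overlap (log2 fold change −0.47, SE 0.15, adjusted p = 0.218). Atp5c1, the gamma subunit that turns within the head, had a log2 fold change of −0.49 (SE 0.17). Atp5k, subunit e of the membrane part, was lowest, at 70.4, 98.8 and 98.6 CPM against 55.0, 50.4 and 71.4 CPM (log2 fold change −0.60, SE 0.16, adjusted p = 0.194), and Atp5s, coupling factor B, was highest (log2 fold change −0.22, SE 0.15). Atp5g1, Atp5g2 and Atp5g3 encode the same mature subunit c, whose ring turns in the membrane. Per length, Atp5g3 was the most abundant of these (226, against 42.5 for Atp5g2 and 21.9 for Atp5g1), and the log2 fold changes were −0.53 for Atp5g1, −0.52 for Atp5g3 and −0.31 for Atp5g2.

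The promoters of these genes were searched for motifs of factors known to regulate mitochondrial genes. Of the 84 genes, 66 had an entry in the RefSeq promoter table of build GRCm38.p6, with 71 promoters in all (250 bases before and 50 after each start). On either strand, the NRF1 motif GCGCANGCG was in 29.6% of these promoters and in 6.25% of all 32851 promoters of the same length. The ETS motif CCGGAAG, bound by GABP, was in 22.5% against 8.86%, the YY1 motif AANATGGCG in 14.1% against 2.38%, and the ERR motif TNAAGGTCA in 4.23% against 1.28%. The MEF2 motif was in 0 of the 71 and in 0.557% of all. In all, 54.9% of the members' promoters held an NRF1, ETS or YY1 motif, against 15.4% of all promoters. These are letter matches, not measured binding, and the NRF1 motif reads nearly alike on both strands, so its matches on the 2 strands overlap. The promoters compared with were not limited to expressed genes or to a like base content. Whether the motifs relate to the log2 fold changes was not tested.

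The 200 bases before the RefSeq start are shown for 7 genes, 5 with a match and 2 without. They are examples of ATP synthase genes and of a widely expressed and a heart form. A further example has the lowest log2 fold change of the subunit genes of at least 1 CPM. Capitals mark the motifs, NRF1 in Atp5k, Atp5g2 and Cox6a1, ERR in Atp5g3, and ETS in Cox6a1 and Cox6b1. Cox7c, which had that value, and the heart form Cox8b hold none of the 5 motifs in this stretch.
Atp5k, chr5:108434400-108434599, minus strand: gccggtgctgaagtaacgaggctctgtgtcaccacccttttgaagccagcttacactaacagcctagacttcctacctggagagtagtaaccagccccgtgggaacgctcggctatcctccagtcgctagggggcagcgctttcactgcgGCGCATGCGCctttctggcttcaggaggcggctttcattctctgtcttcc
Atp5g2, chr15:102671048-102671247, minus strand: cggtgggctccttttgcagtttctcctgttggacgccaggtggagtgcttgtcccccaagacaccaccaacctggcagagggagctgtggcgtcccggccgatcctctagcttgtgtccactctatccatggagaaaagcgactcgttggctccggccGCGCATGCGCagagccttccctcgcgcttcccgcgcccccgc
Atp5g3, chr2:73911327-73911526, minus strand: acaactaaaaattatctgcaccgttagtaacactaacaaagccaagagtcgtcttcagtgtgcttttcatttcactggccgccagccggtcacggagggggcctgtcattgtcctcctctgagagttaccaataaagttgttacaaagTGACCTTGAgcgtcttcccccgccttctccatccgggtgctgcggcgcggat
Cox6a1, chr5:115348959-115349158, minus strand: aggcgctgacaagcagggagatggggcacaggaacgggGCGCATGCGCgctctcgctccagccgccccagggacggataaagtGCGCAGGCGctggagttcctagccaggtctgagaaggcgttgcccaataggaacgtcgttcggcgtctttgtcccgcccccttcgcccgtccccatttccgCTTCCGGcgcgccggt
Cox6b1, chr7:30626115-30626314, minus strand: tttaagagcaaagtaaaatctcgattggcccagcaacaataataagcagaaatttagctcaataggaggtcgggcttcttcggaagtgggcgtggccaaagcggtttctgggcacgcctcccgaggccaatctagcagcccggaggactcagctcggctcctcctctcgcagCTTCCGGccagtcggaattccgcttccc
Cox7c, chr13:86046796-86046995, minus strand: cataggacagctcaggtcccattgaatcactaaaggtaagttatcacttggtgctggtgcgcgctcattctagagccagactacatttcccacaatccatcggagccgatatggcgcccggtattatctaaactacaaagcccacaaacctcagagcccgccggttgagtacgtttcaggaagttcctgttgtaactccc
Cox8b, chr7:140900447-140900646, minus strand: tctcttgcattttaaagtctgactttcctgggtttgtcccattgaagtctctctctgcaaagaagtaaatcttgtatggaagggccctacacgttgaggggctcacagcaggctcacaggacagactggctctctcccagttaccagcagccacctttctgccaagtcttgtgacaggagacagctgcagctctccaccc

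Genes that build or serve the complexes were taken from 3 further lists. Of 46 assembly factor genes tested, 44 had negative log2 fold changes (median −0.32), and 0 were called by edgeR. At an unadjusted p under 0.05, 26 were lower and 1 higher (beside 7.83% and 8.23% of all genes). DESeq2 called 4, all lower (beside 1.18% of all genes). Pet100, a chaperone of complex IV assembly, was at 23.9, 32.8 and 29.4 CPM under the wildtype label and at 19.8, 18.1 and 19.6 CPM under the mutant label, without overlap (log2 fold change −0.58, SE 0.13, adjusted p = 0.169). Tmem70, an assembly factor of ATP synthase, and Lyrm7, which matures the Rieske protein of complex III, had log2 fold changes of −0.49 and −0.75, each without overlap. Cox17, a copper chaperone of complex IV, was the member of the list with the highest value, at 6.14, 5.42 and 5.05 CPM against 5.80, 8.91 and 8.17 CPM (log2 fold change 0.46, SE 0.18).

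Of 22 carrier and electron transfer genes, all 22 had negative log2 fold changes (median −0.40), 16 of them at an unadjusted p under 0.05 (beside 7.83% of all genes lower). Of these 22 genes, 0 were called by edgeR and 5 by DESeq2, all lower (beside 1.18% of all genes by DESeq2). Etfa and Etfdh, which pass electrons from fatty acid oxidation to ubiquinone, had log2 fold changes of −0.54 and −0.49 without overlap between groups. Ndufab1, the mitochondrial acyl carrier protein and a subunit of complex I, was at 48.0, 57.5 and 55.5 CPM under the wildtype label and at 38.6, 37.3 and 44.2 CPM under the mutant label (log2 fold change −0.42, SE 0.11, adjusted p = 0.191). Cycs, the gene of cytochrome c, was at 176, 189 and 213 CPM against 106, 94.7 and 163 CPM, without overlap (log2 fold change −0.67, SE 0.18, adjusted p = 0.194).

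The 25 genes of mitochondrial biogenesis regulators were split in direction. Of these, 15 had negative and 10 positive log2 fold changes (median −0.11), and 0 were called by edgeR. At an unadjusted p under 0.05, 3 were lower and 3 higher (beside 7.83% and 8.23% of all genes). DESeq2 called 2, both higher (beside 1.46% of all genes). Polg2, the accessory subunit of the mitochondrial DNA polymerase, was at 5.44, 6.12 and 5.64 CPM under the wildtype label and at 7.37, 10.5 and 9.02 CPM under the mutant label (log2 fold change 0.65, SE 0.16, adjusted p = 0.186). Pprc1, a coactivator related to Ppargc1a, had a log2 fold change of 0.35 and the nuclear receptor gene Ppard 0.29, both without overlap. The genes of the factors whose motifs were searched had log2 fold changes of 0.06 for Nrf1, −0.14 for Gabpa and 0.01 for Yy1. For the ERR genes they were −0.15 (Esrra), −0.43 (Esrrb) and −0.37 (Esrrg), and for the MEF2 genes −0.14 (Mef2a), −0.11 (Mef2c) and 0.03 (Mef2d). Ppargc1a, the coactivator of mitochondrial biogenesis, was at 77.1, 74.5 and 89.9 CPM against 60.1, 55.5 and 75.2 CPM (log2 fold change −0.34, SE 0.13, adjusted p = 0.252).

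**Figure D5:**
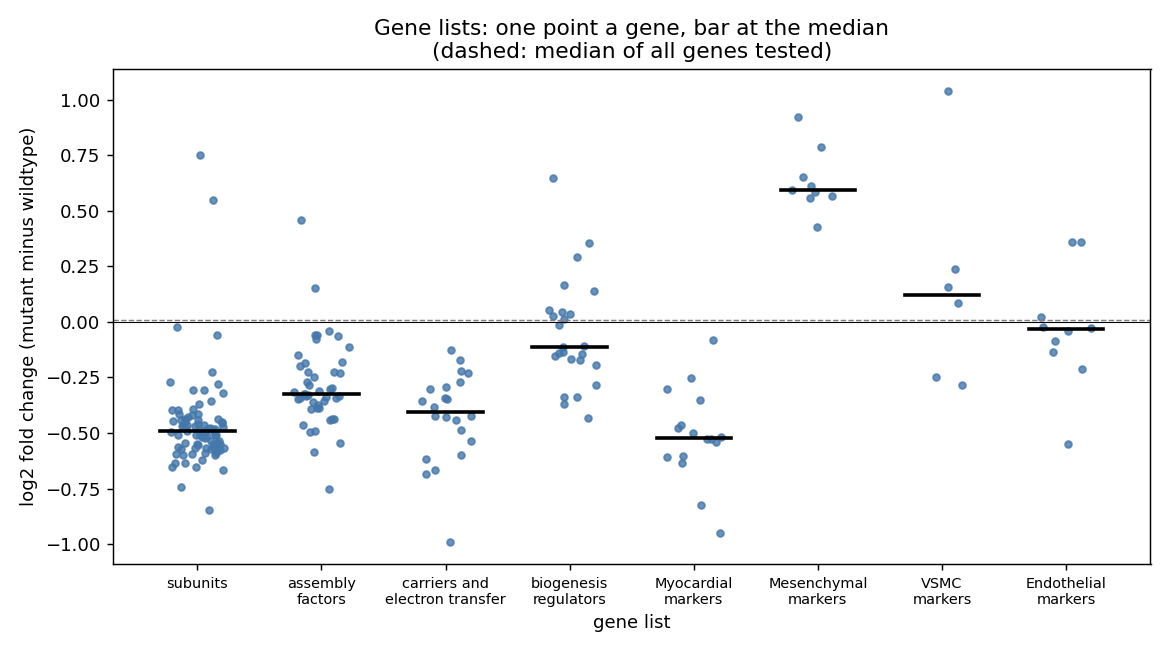
Log2 fold changes (mutant minus wildtype, vertical axis) of the subunit genes of at least 1 CPM, 3 mitochondrial lists and 4 marker lists, with a point for each gene and a bar at the median of the list. The subunit genes (median −0.49 over all 84), carriers (−0.40) and assembly factors (−0.32) lie mostly under 0 as the Myocardial markers do (−0.52), the biogenesis regulators straddle 0 (−0.11), and the Mesenchymal markers lie above it (0.60).

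Several members have processed pseudogenes that were counted as genes of their own, among them Atp5c1, Atp5k, Atp5l, Cox6c, Ndufb4, Ndufs6 and Uqcrh. How reads shared with such copies, or with overlapping genes on the other strand, were assigned is not given in the sources used here, so the values of these members are uncertain. The copy Ndufb4c had 18699 counts summed over the 6 libraries, where Ndufb4 had 1046 to 2265 in each. Atp5l2-ps had 19587 in sum, where Atp5l had 1236 to 1742 in each. Atp5c1-ps, by contrast, had 1397 in sum, where Atp5c1 had 8364 to 16147 in each. The log2 fold changes of the members with such copies ran from −0.60 (Atp5k) to −0.28 (Atp5l), within the range of the other members.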

How the data were processed

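Counts of 6 bulk RNA-Seq libraries of E13.5 OFT were analysed, 3 labelled mutant and 3 wildtype. Per the labels and methods, the authors removed ribosomal RNA, prepared stranded libraries, aligned reads to mm10 (TopHat2 2.1.0) and deposited raw counts per gene, made from exonic reads in GenomicAlignments. Depth was 34729103 to 44387490 counts per library, and p-values cover the spread between these libraries only.

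Genes with 5 or fewer counts in all were left out as in the study. The 28157 others were scaled by TMM and tested with edgeR 4.0.16 (quasi-likelihood test, Benjamini-Hochberg over all genes, adjusted p at most 0.05) in R 4.3.3, and with DESeq2 1.42.0 and limma 3.58.1 as alternatives. The code was tested on simulated counts. The 3 isoform pairs of heart and widely expressed forms were compared by exact permutation of log2 count ratios with a pseudocount of 0.5. Gene positions and exon lengths came from the GENCODE annotation of mm10, and promoters from RefSeq.

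The members, the gene lists and the tests were chosen with earlier results of these data known. Named genes were the highest and lowest of each complex (of genes of at least 1 CPM), isoform pairs, catalytic subunits and Ndufa13. The others were the 5 highest levels per length and the 3 lowest p-values of each other list. Cycs, Cox17, Cox5a, Ndufb2 and the regulators beside the motifs were named after their values were seen. The marker lists not described in the results had median log2 fold changes of −0.14 (Epicardial), −0.07 (Macrophage), −0.03 (Endothelial), 0.12 (VSMC), 0.14 (Neuronal) and 0.50 (Neural crest and glia).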

Additional observations from a re-analysis of the deposited data

How the results depend on the processing

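The negative median log2 fold change of the 84 subunit genes kept its sign under every setting tried, from −0.65 without wildtype replicate 1 to −0.14 with the Myocardial covariate, and 78 to 82 genes were negative, or 81 of 83 with filterByExpr. With that covariate the medians of complexes I to V were −0.15, −0.13, −0.15, −0.15 and −0.12. With library size only, the median of all genes was 0.11 and that of the subunit genes −0.39. The count of called subunit genes (0) was 0 with limma-voom, DESeq2's size factors, library size only, no filter, filterByExpr, the GC and length correction and the Myocardial covariate. It was 37 with DESeq2's Wald test, which also called 4 assembly factor, 5 carrier and 2 regulator genes. Leaving out 1 library gave 0 to 76 subunit genes, 0 to 13 assembly factor, 0 to 10 carrier and 0 to 1 regulator genes. The highest counts were always without wildtype replicate 1, where 9.45% of all genes were called. It also gave 19 to 80 subunit genes without overlap (26.7% to 53.4% of all genes of at least 1 CPM, highest without wildtype replicate 1). Without mutant replicate 1 the differences in the Cox7a1/Cox7a2 and Cox8b/Cox8a ratios turned to 0.021 and 0.033, and over all libraries left out in turn they ran from −0.10 to 0.021 and from −0.16 to 0.033. For the 51 genes named by rule, 704 of 866 values under an alternative kept direction and side of the threshold, and 157 passed it in the same direction. The other 5, of 3 genes and none of them called, changed sign. With the Myocardial covariate the log2 fold change of Ndufs7 was 0.094 and the log2 fold change of Cox7b2 3.19, and the log2 fold change of Cox6b2 was 0.048 with library size only. With libraries left out in turn, Cox7b2 ran from −7.72 to 2.09 (positive without wildtype replicate 3) and Cox6b2 from −0.12 to 0.061 (positive without wildtype replicate 2). Genes named after their values were seen lie outside the 51, and some of them changed sign too. Examples with the Myocardial covariate are Ndufb2 (0.34), Nrf1 (−0.0056), Yy1 (−0.024), Esrra (0.16), Esrrb (0.043) and Mef2c (0.0056). The cause of these changes was not tested.

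Libraries of the 2 groups share replicate numbers, but nothing in the labels says that a number marks a litter or day. The correlations of the deviations of same-numbered libraries were 0.096, 0.159 and 0.42 over 16655 genes. Wildtype 1 was closer to mutant 2 (0.277), and the other correlations of unlike numbers were negative, from −0.441 to −0.00712. These deviations were from the mean of each group, so the covariances of a library with the other group's libraries cancel. Some negative correlations are thus fixed by the calculation. With no label that states pairs, the numbers were not taken as pairs, and whether they mark a shared factor was not tested. A replicate block called 61 subunit genes (59 lower, beside 5.6% of all genes called and 2.42% called lower), 5 assembly factor, 9 carrier (all lower) and 2 regulator genes (both higher). The replicate block with the GC and length correction called 69 (67 lower), 14 and 15 (all lower) and 5 (4 lower), beside 8.08% of all genes called and 4.78% called lower. With the numbers of the descriptions, a block added after the data were seen, it called 1 subunit gene and 1 carrier gene. Over all 28157 genes that block called 83, of which 21 were lower. Among the members, only Cox7b2 was limited by its counts.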
